A study of Mus musculus with 6 samples.

Results

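Myb, Mybl1 and Mybl2 form the MYB family of transcription factors, and their expression was followed here in mice with and without a knockdown of Myb. The members are the 3 genes of these symbols among 19938 genes that had a probe set (a group of array probes summarised as 1 value) annotated to a single symbol. Each member had 1 such probe set, so 3 of 35556 probe sets carry the family. RNA came from 6 mice, 3 labelled wild type and 3 labelled MYB knockdown, with 1 Affymetrix whole-transcript array per mouse. All 6 were C57BL6 males, 4 weeks old, and carried no other allele or treatment that the labels name. The cells were bone marrow cells sorted as Kit+CD11b+Lin-Low, abbreviated K11bL, a myeloid progenitor gate that the title of the series calls myeloproliferative. The labels give neither the means by which Myb was lowered nor the lineage markers of the gate, and they name no pooling of animals. The genes behind the gate were bright on these arrays: Kit, the receptor of stem cell factor, exceeded 94.1% of the 13956 genes tested, and Itgam, the CD11b integrin chain, exceeded 87.1%.

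MYB proteins bind DNA through repeats rich in tryptophan and activate transcription with coactivators such as p300. Myb is expressed mainly in immature blood cells, where it sustains progenitors and their granulocyte, lymphoid and erythroid offspring. Mybl1 (A-Myb) is best known for meiosis in male germ cells and is also found in some B cells. Mybl2 (B-Myb) is expressed in nearly all dividing cells, is switched on by E2F factors at the entry to S phase, and joins the MuvB core to activate genes of G2 and mitosis.

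The promoters of Myb and Mybl2 are shown because both genes are classical E2F targets. The letters TTGGCGGGA, an E2F-type element searched on both strands, are in capitals. The sequences are RefSeq promoters of the mouse build GRCm38.p6, from 250 bases before to 50 bases after the annotated start site. Of the 3 members, 2 were found in that promoter table, and Mybl1 was not.
Myb, chr10:21160935-21161234, minus strand: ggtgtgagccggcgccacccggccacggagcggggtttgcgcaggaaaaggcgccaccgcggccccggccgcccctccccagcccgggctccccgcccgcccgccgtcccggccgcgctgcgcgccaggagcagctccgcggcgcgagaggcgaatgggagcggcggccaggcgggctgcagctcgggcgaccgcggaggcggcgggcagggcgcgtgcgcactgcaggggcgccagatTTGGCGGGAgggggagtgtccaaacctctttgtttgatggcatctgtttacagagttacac
Mybl2, chr2:163054385-163054684, plus strand: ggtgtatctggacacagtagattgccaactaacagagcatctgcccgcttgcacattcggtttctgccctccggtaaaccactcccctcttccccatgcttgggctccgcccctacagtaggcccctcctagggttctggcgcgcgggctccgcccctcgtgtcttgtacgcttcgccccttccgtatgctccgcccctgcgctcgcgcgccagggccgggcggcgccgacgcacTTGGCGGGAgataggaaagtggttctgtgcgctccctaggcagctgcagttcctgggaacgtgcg
Both promoters hold the element on the coding strand, starting 11 bases before the start site in Myb and 15 bases before it in Mybl2. The Mybl2 stretch lies inside the RefSeq gene, which begins at 163054327, so the start site used is not the first of that gene. The same letters occur in 88 of 32851 promoters of this length (0.268%). Counted per gene rather than per promoter, they occur in 0 of 15 genes of the G1/S list of E2F targets below. The counts are 0 of 13 in the DREAM and E2F list and 0 of 17 in the G2 and mitosis list, among genes found in that promoter table. A match is a description of the letters and does not show binding.

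The arrays were close in scale but not alike in every detail. The median log2 value of each knockdown array lay below that of each wild type array, so this gap cannot be separated from genotype. The upper quartiles overlapped between the groups. Median centring, which removes the gap, changed the difference of Myb from -0.30 to -0.23. The correlation over all probe sets lay between 0.993 and 0.995 among wild type arrays and at 0.994 for the knockdown pair 1 and 2. The array of knockdown mouse 3 was the least alike, with 0.977 and 0.984 against knockdown arrays 1 and 2. Some results in which it stood apart are given with and without it, and others with it only. Of the 13956 genes tested, 1619 (11.6%) were called, that is, had a Benjamini-Hochberg adjusted p under 0.05 in limma. Of all genes 5.48% fell and 6.12% rose, and these shares are the background for every count below.

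Myb was the only member of the family that passed the test. Its log2 values were 11.47, 11.46 and 11.46 in wild type mice 1, 2 and 3, and 11.26, 11.08 and 11.14 in knockdown mice 1, 2 and 3. All knockdown values lay below all wild type values, a pattern shown by 14.4% of all genes tested (34.3% where either direction counts). The group means were 11.46 ± 0.0023 (SD, n = 3) and 11.16 ± 0.09 (SD, n = 3), so that Myb fell by 0.30 ± 0.06 (SE) in limma (adjusted p = 0.0196). In linear terms the knockdown signal was 81.1% of the wild type signal, with a 95% interval from 73.2% to 89.8%. The exact permutation test over the 6 arrays gave p = 0.1, two-sided, the smallest that 3 against 3 mice allow.

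The call of Myb rested in part on how the spread was estimated. Its wild type values differed by less than those of nearly all genes of like brightness. Of 363 genes whose mean lay within 0.5 of that of Myb, 1 had a smaller wild type SD, and the median SD among them was 0.05. In size the fall of Myb was modest: of the 765 genes that fell, it held place 758 from the largest fall downwards. Among those 363 genes of like brightness the median absolute difference was 0.13. The signal of Myb was brighter than that of 98.5% of genes tested. Of the 203 genes brighter than Myb in their mean over all arrays, 13 fell and 11 rose. The largest fall among them was that of Prtn3, proteinase 3 of primary granules, by 1.35. Its knockdown values, from 10.76 to 10.92, lay below every value of Myb. The adjusted p of Myb was 0.0967, 0.0894 and 0.0926 when wild type mouse 1, 2 and 3, respectively, was left out, and 0.0776 when knockdown mouse 2 was, with differences between -0.30 and -0.26. After median centring of the arrays the difference was -0.23 (adjusted p = 0.074) and without the trend of eBayes the adjusted p was 0.0662, against a range from 0.000586 to 0.0967 over all alternatives. Where the probes lie in the Myb transcript is not given in the sources used here, and the size need not be that of the knockdown of the protein.

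**Figure D1:**
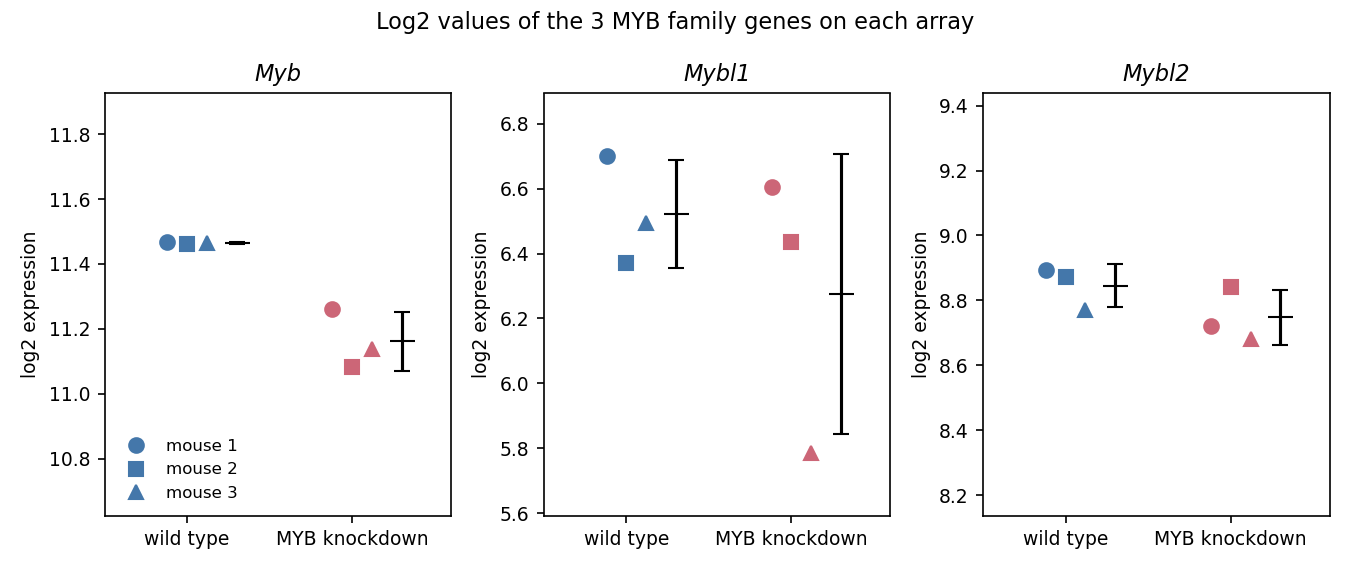
Log2 expression of Myb, Mybl1 and Mybl2 on each array, wild type in blue and MYB knockdown in red, with the group mean and SD (n = 3) in black and axes of equal span. The knockdown values of Myb (11.08 to 11.26) sit below the wild type values, while both other genes overlap between groups and knockdown mouse 3 has the lowest Mybl1 value (5.79).

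Mybl1 did not pass the test. Its log2 values were 6.70, 6.37 and 6.49 in wild type and 6.60, 6.44 and 5.79 in knockdown. Knockdown mice 1 and 2 lay within the wild type range, and knockdown mouse 3 alone lay below it. The difference was -0.25 ± 0.20 (SE), with a 95% interval from -0.71 to 0.22 (adjusted p = 0.527 in limma, exact permutation p = 0.5). Without knockdown mouse 3 the difference was -0.00098 (adjusted p = 0.996). In brightness Mybl1 exceeded 31.3% of genes tested, a set that already leaves out the dimmest 30% of all genes. The interval leaves room for a fall of the size seen for Myb, and for a rise.

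Mybl2 did not pass the test either. It read 8.89, 8.87 and 8.77 in wild type and 8.72, 8.84 and 8.68 in knockdown. The groups overlapped, with knockdown mouse 2 inside the wild type range. The difference was -0.10 ± 0.10 (SE), with a 95% interval from -0.32 to 0.12 (adjusted p = 0.609 in limma, exact permutation p = 0.2). It was -0.02 after median centring and -0.0072 with array weights. A fall to 80.3% and a rise to 108.8% of the wild type signal bound this interval.

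Whether the members shifted unequally was tested on their differences within each array, which cancel the scale of the array. Myb minus Mybl2 was 2.57, 2.59 and 2.69 in wild type and 2.54, 2.24 and 2.46 in knockdown. The groups did not overlap, and the shift was -0.21 (exact permutation p = 0.1, adjusted p = 0.3 over the 3 pairs of members). Myb minus Mybl1 shifted by -0.06 (exact permutation p = 0.8) and Mybl1 minus Mybl2 by -0.15 (exact permutation p = 0.7), each with an adjusted p = 0.8. With 3 mice a group no such p can be under 0.1, so an unequal shift of Myb and its relatives was not shown. The sign of Myb minus Mybl1 turned when wild type mouse 2 (0.02) or either of knockdown mice 1 and 2 (0.06 each) was left out, and that of Mybl1 minus Mybl2 when knockdown mouse 3 was (0.06).

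**Figure D2:**
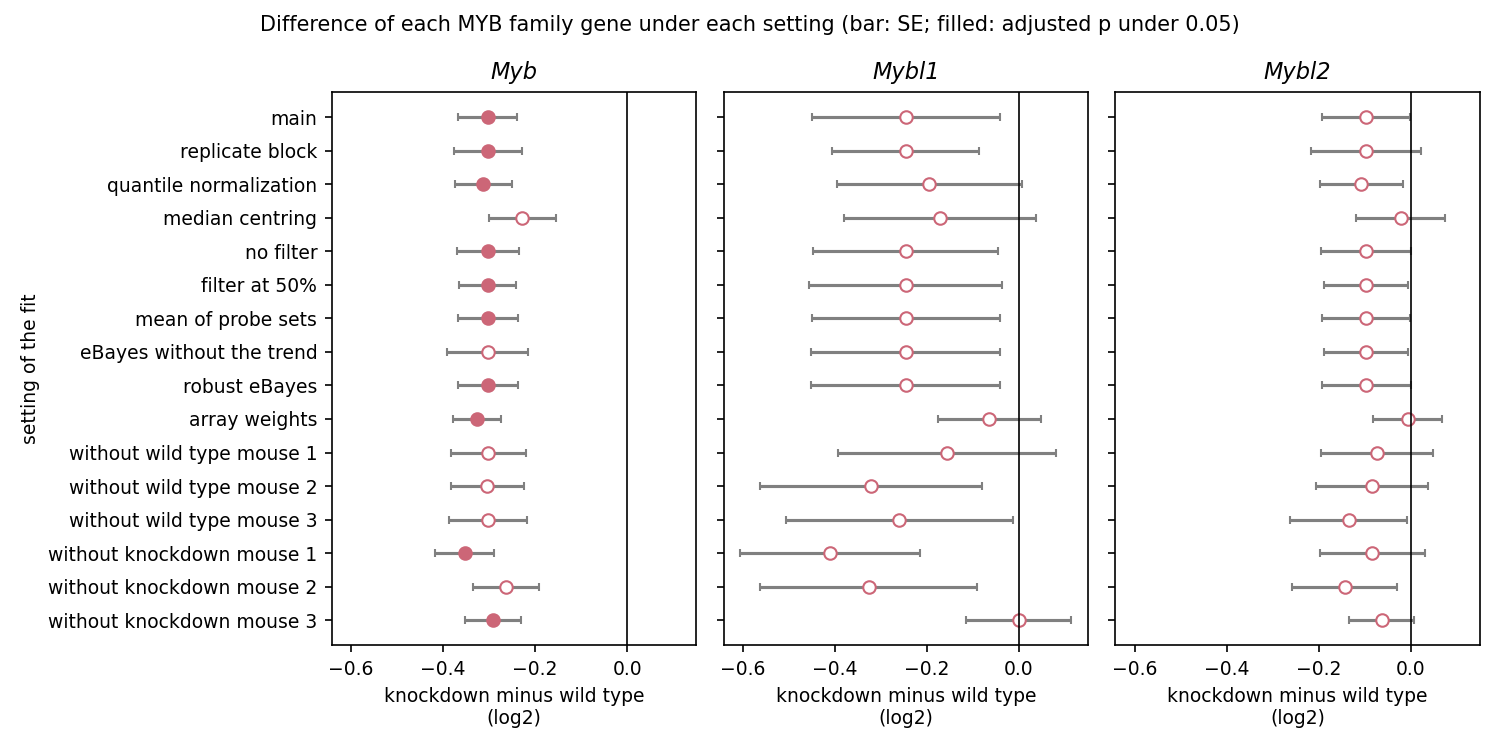
Log2 difference, knockdown minus wild type, for each member under the 16 settings of the fit, with the SE as a bar and filled points where the adjusted p was under 0.05. The differences of Myb lie between -0.35 and -0.23 under all settings but are not always called, and those of Mybl1 move to -0.00098 when knockdown mouse 3 is left out.

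Of the coactivators and binding partners of MYB, 2 of 15 rose and 0 fell, against a background of 6.12% and 5.48%. Mybbp1a, a nucleolar protein that binds MYB, read 9.88, 9.97 and 9.96 in wild type and 10.31, 10.50 and 10.36 in knockdown, and rose by 0.46 ± 0.08 (adjusted p = 0.0099). Chd3, a chromatin remodeller that binds MYB, rose by 0.50 ± 0.11 (adjusted p = 0.0193). The acetyltransferases Ep300 and Crebbp, through which MYB activates transcription, differed by 0.05 ± 0.09 (adjusted p = 0.802) and 0.11 ± 0.09 (adjusted p = 0.522). Kmt2a and Men1, partners of MYB in a histone methyltransferase complex, differed by -0.14 ± 0.10 and 0.11 ± 0.11. Taf12, a subunit of TFIID that supports MYB activity, differed by 0.10 ± 0.11. The median difference of the list was 0.11, beside 0.02 over all genes. Mybbp1a lost its call when wild type mouse 1 or 3 was left out (adjusted p = 0.0654 and 0.0526). Chd3 lost it when wild type mouse 1, 2 or 3 (adjusted p = 0.0807, 0.105 and 0.0978) or knockdown mouse 2 (0.083) was.

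Of the enzymes that modify MYB protein or direct its degradation, 2 of 12 tested rose and 0 fell. Pim1, a kinase that phosphorylates MYB and is induced by cytokines, read 9.06, 8.89 and 9.08 in wild type and 10.28, 10.33 and 10.28 in knockdown. The groups lay far apart, and Pim1 rose by 1.29 ± 0.09 (2.44-fold, adjusted p = 9.15e-05). Hipk2, a kinase of the pathway that marks MYB for degradation, read 9.83, 9.97 and 9.98 in wild type and 10.44, 10.34 and 11.16 in knockdown, highest in knockdown mouse 3. It rose by 0.72 ± 0.19 (adjusted p = 0.0476), and by 0.47 ± 0.07 without knockdown mouse 3 (adjusted p = 0.00113). Nlk, the kinase next to HIPK2 in that pathway, differed by 0.18 ± 0.09 (adjusted p = 0.256), and Fbxw7, a ubiquitin ligase subunit that recognises MYB, by -0.07 ± 0.19 (adjusted p = 0.883). Fbxw7 differed by 0.16 ± 0.09 with knockdown mouse 3 left out (adjusted p = 0.24). Hipk2 lost its call when wild type mouse 1, 2 or 3 was left out (adjusted p = 0.176, 0.145 and 0.121), and its adjusted p was 0.0596 after quantile normalization, 0.052 without a filter, 0.0572 without the trend and 0.0504 with robust eBayes. Without knockdown mouse 3, 4 of the 12 rose, Nlk among them (adjusted p = 0.0195).

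Of 13 tested regulators of Myb 6 rose and 0 fell, against 6.12% and 5.48% of all genes. All 6 are among the 10 that act on its transcription, and the other 3 are microRNAs, none of them called. The counts were 7 and 0 without knockdown mouse 3. Gata2, a progenitor factor that binds Myb enhancers, read 8.57, 8.65 and 8.62 in wild type and 9.41, 9.36 and 10.23 in knockdown, and rose by 1.05 ± 0.21 (adjusted p = 0.0161). Its highest value was in knockdown mouse 3, without which it rose by 0.77 ± 0.06 (adjusted p = 5.44e-05). Meis1 and Hoxa9, homeodomain partners upstream of Myb in leukaemia, rose by 0.85 ± 0.16 (adjusted p = 0.0127) and 0.65 ± 0.10 (adjusted p = 0.0048). Runx1, a core factor of haematopoiesis, rose by 0.54 ± 0.11. With knockdown mouse 3 left out, Meis1 rose by 1.04 ± 0.08 and Runx1 by 0.41 ± 0.06. Tal1 and Lmo2, members of one DNA-binding complex of progenitors, rose by 0.48 ± 0.10 and 0.34 ± 0.07. Gata1, an erythroid and megakaryocyte factor that represses Myb as erythroid cells mature, read 6.71, 7.18 and 7.12 in wild type and 7.84, 7.37 and 8.32 in knockdown. Its groups did not overlap, but it differed by 0.84 ± 0.24 with an adjusted p of 0.0556. It was called when knockdown mouse 2 or 3 was left out (adjusted p = 0.0222 and 0.0288), with the replicate block (0.0276), after median centring (0.0351) and with array weights (0.0297). Without knockdown mouse 3 it differed by 0.60. Klf1, the erythroid factor, differed by 0.29 ± 0.34, and its highest value (8.59) was in knockdown mouse 3. Without that mouse it differed by -0.10 ± 0.21 (adjusted p = 0.746).

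These regulators also mark cell types. Of 10 stem cell and early progenitor markers tested, 8 rose and 0 fell, and the mean log2 level of the list ran from 8.10 to 8.21 over wild type arrays and from 8.82 to 8.96 over knockdown arrays. Gata2, Hoxa9 and Meis1 are on both lists. Of 8 megakaryocyte and platelet markers tested, 6 rose, with means from 7.46 to 7.56 in wild type and from 8.75 to 8.83 in knockdown. Of 8 erythroid markers tested, 1 rose, with means from 7.64 to 8.07 and from 7.66 to 8.59. The mean of 8.59 was that of knockdown mouse 3, without which 2 of the 8 rose. Whether the cell types of the gate account for the rise of the regulators was not tested. In sorted bulk cells more cells of a type and more RNA per cell cannot be told apart. The count of regulators that rose was 1, 1 and 2 when wild type mouse 1, 2 and 3, respectively, was left out. With any of these mice left out Gata2, Lmo2, Runx1 and Tal1 were not called (adjusted p from 0.0561 to 0.113), and Lmo2 and Tal1 were not called without knockdown mouse 2 (0.0615 and 0.0685), nor was Meis1 when wild type mouse 1 or 2 was left out (0.0706 and 0.0601).

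MicroRNAs of the miR-15/16 group are known to repress Myb, and their mature sequences are shown because they share the seed, bases 2 to 8, given in capitals (RefSeq, GRCm38.p6). The gene of miR-15a-5p lies on chromosome 14, and miR-16-5p comes from genes on chromosomes 3 and 14.
mmu-miR-15a-5p: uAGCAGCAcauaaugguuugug
mmu-miR-16-5p: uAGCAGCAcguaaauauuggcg
The probe set of Mir15a read 6.58, 6.93 and 6.93 in wild type and 6.87, 6.52 and 5.82 in knockdown, a difference of -0.41 ± 0.25 (adjusted p = 0.354). As with Mybl1, the lowest value was in knockdown mouse 3, and without it the difference was -0.12 ± 0.14 (adjusted p = 0.579). Mir16-1, which reads 1 source of miR-16-5p only, fell under the filter on dim genes, with values from 4.57 to 4.72. Mir150, the best known microRNA regulator of Myb, differed by -0.14 ± 0.16 (adjusted p = 0.663), and Mir155 by -0.05 ± 0.12 (adjusted p = 0.865). How far these probe sets read the mature microRNA or its precursor is not given in the sources used here.

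Among genes reported elsewhere to be switched on by MYB, 7 of 16 tested fell and 2 rose, against 5.48% and 6.12% of all genes. The counts were 9 and 3 without knockdown mouse 3. Of the 7 genes, 6 had log2 differences between -3.69 and -0.97, against -0.30 for Myb itself. Elane, neutrophil elastase, read 12.41, 12.26 and 12.36 in wild type and 8.69, 8.70 and 8.56 in knockdown. It fell by 3.69 ± 0.08 (12.9-fold). Igll1, part of the pre-B cell receptor, fell by 2.06 ± 0.33, from 7.89, 8.68 and 8.91 to 7.10, 6.15 and 6.04. Gfi1, a repressor needed for neutrophils, fell by 1.49 ± 0.12, Prtn3 by 1.35 ± 0.08 and Mpo, myeloperoxidase, by 1.20 ± 0.07. Ms4a3, a membrane protein of granulocyte precursors, fell by 0.97 ± 0.07. Cxcr4, the receptor that holds cells in the marrow, fell by 0.34 ± 0.07 (adjusted p = 0.0236), a change of the size of that of Myb. The list was chosen from the literature with results of these arrays known, so it is not independent evidence of a direction.

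The other 9 tested genes of the list rose or were not called. Cd34, a surface marker of progenitors, read 11.21, 11.33 and 11.36 in wild type and 11.84, 11.79 and 11.67 in knockdown, and rose by 0.47 ± 0.07 (adjusted p = 0.0038). Lmo2, which is also on the list of regulators, rose by 0.34 ± 0.07. Myc, the growth factor-induced oncogene, read 11.19, 11.23 and 11.33 in wild type and 11.41, 11.48 and 11.57 in knockdown. It differed by 0.24 ± 0.07 without passing the test (adjusted p = 0.0586), as did Bcl2, a survival gene, with 0.24 ± 0.09 (adjusted p = 0.117). Kit differed by -0.27 ± 0.08 (adjusted p = 0.06), nearly as much as Myb, and its groups did not overlap. Vpreb1, a surrogate light chain gene of early B cells, read 5.42, 5.39 and 5.41 in wild type and 5.07, 5.16 and 5.31 in knockdown, again without overlap, a difference of -0.23 ± 0.09 (adjusted p = 0.165). With knockdown mouse 3 left out, Myc, Kit and Vpreb1 were called (adjusted p = 0.0331, 0.0147 and 0.0339), as they were with array weights (0.0435, 0.00423 and 0.0202). Kit was also called after quantile normalization (0.0405) and with the filter at 50% (0.0497), Myc after median centring (0.0239) and with that filter (0.0497), and Bcl2 after median centring (0.0415) and with array weights (0.0442). Cebpe, a factor of late granulocytes, differed by -0.0009 ± 0.11 and Ada, adenosine deaminase, by -0.0011 ± 0.13. The median of the list was -0.25, beside 0.02 over all genes. Gata3 and Rag2 fell under the filter, and Mat2a had no probe set of its own. Cxcr4 was not called after median centring (adjusted p = 0.0771) or without the trend of eBayes (0.0513), nor when wild type mouse 1, 2 or 3 (0.124, 0.0593 and 0.123) or knockdown mouse 2 (0.091) was left out. Lmo2 lost its call with the same arrays left out (0.0764, 0.0593, 0.0819 and 0.0615).

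Markers of neutrophil, monocyte and early B lymphoid cells moved beside these targets. Of 11 neutrophil markers 4 fell and 1 rose, and the mean of the list ran from 9.68 to 10.27 over wild type arrays and from 9.09 to 9.81 over knockdown arrays. Those that fell were S100a8, S100a9, Ltf and Camp. The marker that rose was Mmp8, by 3.26 ± 0.36 (adjusted p = 0.000888). Cxcr2 differed by 0.61 ± 0.17 without passing the test (adjusted p = 0.0504). Of 10 monocyte and macrophage markers tested 3 rose and 2 fell, with means from 8.53 to 8.70 and from 8.37 to 8.67. Cd68, a lysosomal protein of macrophages, rose by 1.23 ± 0.18, and F13a1, a coagulation factor subunit, fell by 2.84 ± 0.34. Of 9 B lymphoid markers tested 4 fell, with means from 6.62 to 7.12 and from 6.08 to 6.33. Those that fell, Igll1, Ebf1, Rag1 and Dntt, belong to early lymphoid or B progenitor cells, and Cd79b, of the B cell receptor, differed by 0.04 ± 0.09 (adjusted p = 0.853). Without knockdown mouse 3, 2 neutrophil markers rose and 6 fell, 4 monocyte markers rose and 3 fell, and 6 B lymphoid markers fell. Itgam, like Kit a gene of the gate, read 9.81, 9.90 and 9.82 in wild type and 9.85, 9.43 and 9.07 in knockdown. It differed by -0.39 ± 0.17 (adjusted p = 0.202), and by -0.20 ± 0.11 without knockdown mouse 3. Igll1 and Vpreb1 are on both the B lymphoid and the target list, and the B cell genes Cd79a, Ms4a1 and Rag2 lay under the filter in these cells. The part of these cells in the falls was not tested.

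**Figure D3:**
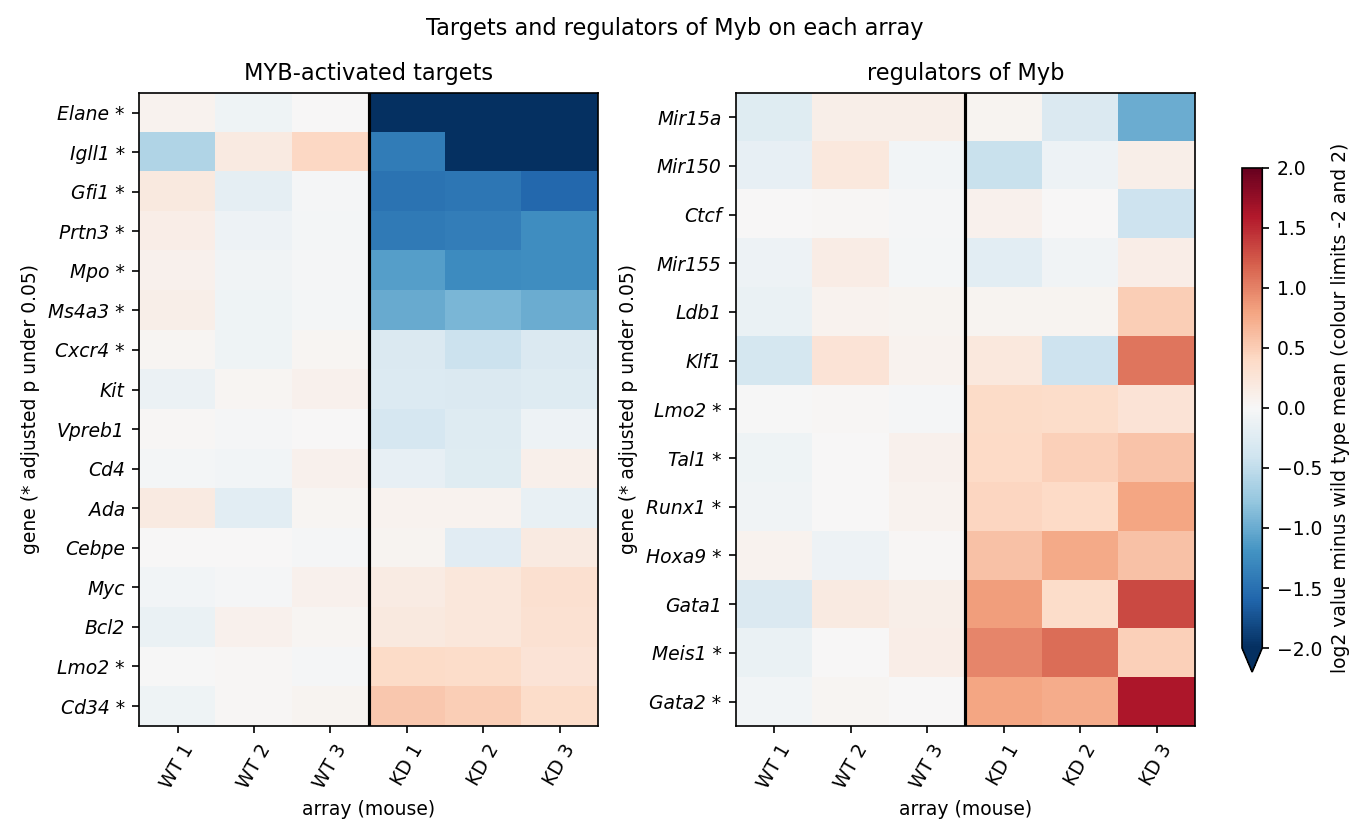
Log2 value of each tested target (left) and regulator (right) of Myb on each array, minus the wild type mean of that gene, from blue (lower) to red (higher) with colour limits at -2 and 2. Elane, Gfi1, Prtn3, Mpo and Ms4a3 are lower in all 3 knockdown mice by a like amount, whereas Klf1, Gata1 and Gata2 are highest in knockdown mouse 3.

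Stretches around MYB-type letters in the promoters of 3 granule genes of that list are shown because these genes were lower on every knockdown array. The core of the MYB element is AACNG. Its forms AACGG and AACTG were searched on both strands, they do not overlap each other, and the match is in capitals (RefSeq, GRCm38.p6, coding strand).
Elane, chr10:79886247-79886281, plus strand: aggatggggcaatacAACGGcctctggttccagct
Prtn3, chr10:79879597-79879631, plus strand: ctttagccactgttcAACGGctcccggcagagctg
Mpo, chr11:87793604-87793638, plus strand: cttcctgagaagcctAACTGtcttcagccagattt
The AACGG match began 50 bases before the start site in Elane and 55 bases before it in Prtn3, and the AACTG match of Mpo began 165 bases before it. A further AACTG match of Prtn3, not printed here, began 104 bases before its start site. AACGG occurred in 17.4% and AACTG in 44.8% of all 32851 promoters of this length, so such letters are common. Among 15 target genes with a promoter in the table, 5 held AACGG and 6 held AACTG, counted per gene and so not in the unit of the 32851 promoters.

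The machinery of Mybl2 held no gene that was called in the main fit. Of 19 components of the DREAM and MYBL2-MuvB complexes and E2F factors, limma called 0, and 1 had an unadjusted p under 0.05. That gene was E2f4, the repressor-type E2F of DREAM, which read 9.16, 9.26 and 9.26 in wild type and 9.43, 9.56 and 10.33 in knockdown (difference 0.55 ± 0.21, adjusted p = 0.144). E2f4 was called without knockdown mouse 3 (0.27, adjusted p = 0.0181) and with array weights (0.32, adjusted p = 0.0186). Lin9 and Lin54, the MuvB subunits that hold MYBL2 and DNA, differed by -0.01 ± 0.13 and -0.09 ± 0.11. Foxm1, which follows MYBL2 onto mitotic promoters, differed by 0.04 ± 0.12. Lin9, Lin54 and Foxm1 differed by 0.11 ± 0.08, 0.02 ± 0.06 and -0.06 ± 0.08 with knockdown mouse 3 left out. E2f1, an activator of the Mybl2 promoter shown above, read 8.86, 8.73 and 8.71 in wild type and 8.74, 8.83 and 8.80 in knockdown, a difference of 0.02 ± 0.09. The median of this list was -0.01.

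Targets of MYBL2 and FOXM1 in G2 and mitosis, like Mybl2 itself, were not called. Limma called 0 of 18 tested, and 1, the kinetochore motor Cenpe, had an unadjusted p under 0.05, with a difference of -0.36 ± 0.16 (adjusted p = 0.193). Plk1, the polo kinase, differed by 0.08 ± 0.08, Ccnb2, cyclin B2, by -0.06 ± 0.06, and Birc5, survivin, by 0.01 ± 0.11. The differences of all 18 ran from -0.36 to 0.08, with a median of -0.06. The mean of the list ran from 9.80 to 9.87 over wild type arrays. It was 9.95, 9.79 and 9.53 in knockdown mice 1, 2 and 3, so knockdown mouse 3 stood apart. Without that mouse limma called 0 of the 18, and Cenpe differed by -0.18 ± 0.08 (adjusted p = 0.131). Plk1, Ccnb2 and Birc5 then differed by 0.09, -0.03 and 0.10. Of 17 E2F targets of the G1/S transition 1 rose and 1 fell, near the background. Ccne1, cyclin E1, rose by 0.48 ± 0.10 (adjusted p = 0.0166), and Cdc25a, a phosphatase that activates CDK2, fell by 0.43 ± 0.08 (adjusted p = 0.0103). Ccne1 lost its call when wild type mouse 1, 2 or 3 was left out (adjusted p = 0.0765, 0.0958 and 0.0684), and Cdc25a when wild type mouse 1 or 3 was (0.0736 and 0.0621). The replication licensing genes Mcm2, Mcm3, Mcm4, Mcm5, Mcm6 and Mcm7 differed by -0.07 to 0.16 and were not called, but Mcm2 was called (0.21, adjusted p = 0.0219) with knockdown mouse 3 left out.

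More distant relatives that carry MYB-like repeats were not called either. Limma called 0 of 12, and 1, Smarcc1 of the SWI/SNF complex, had an unadjusted p under 0.05 (difference 0.22 ± 0.09, adjusted p = 0.157). Dmtf1, an activator of the Arf gene, differed by -0.11 ± 0.16. Terf1 and Terf2, which bind telomeres through a single such repeat, differed by -0.08 ± 0.14 and -0.11 ± 0.11. Dmtf1, Terf1 and Terf2 differed by 0.05 ± 0.10, 0.08 ± 0.08 and -0.02 ± 0.07 with knockdown mouse 3 left out. Mysm1, a histone deubiquitinase of blood cells, read 8.60, 8.38 and 7.51 in knockdown, lowest in knockdown mouse 3 (difference -0.30 ± 0.25, adjusted p = 0.53, and 0.03 ± 0.08 without that mouse). Smarcc1 and Dnajc2, a chaperone, rose without knockdown mouse 3 (adjusted p = 0.0175 and 0.00924).

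**Figure D4:**
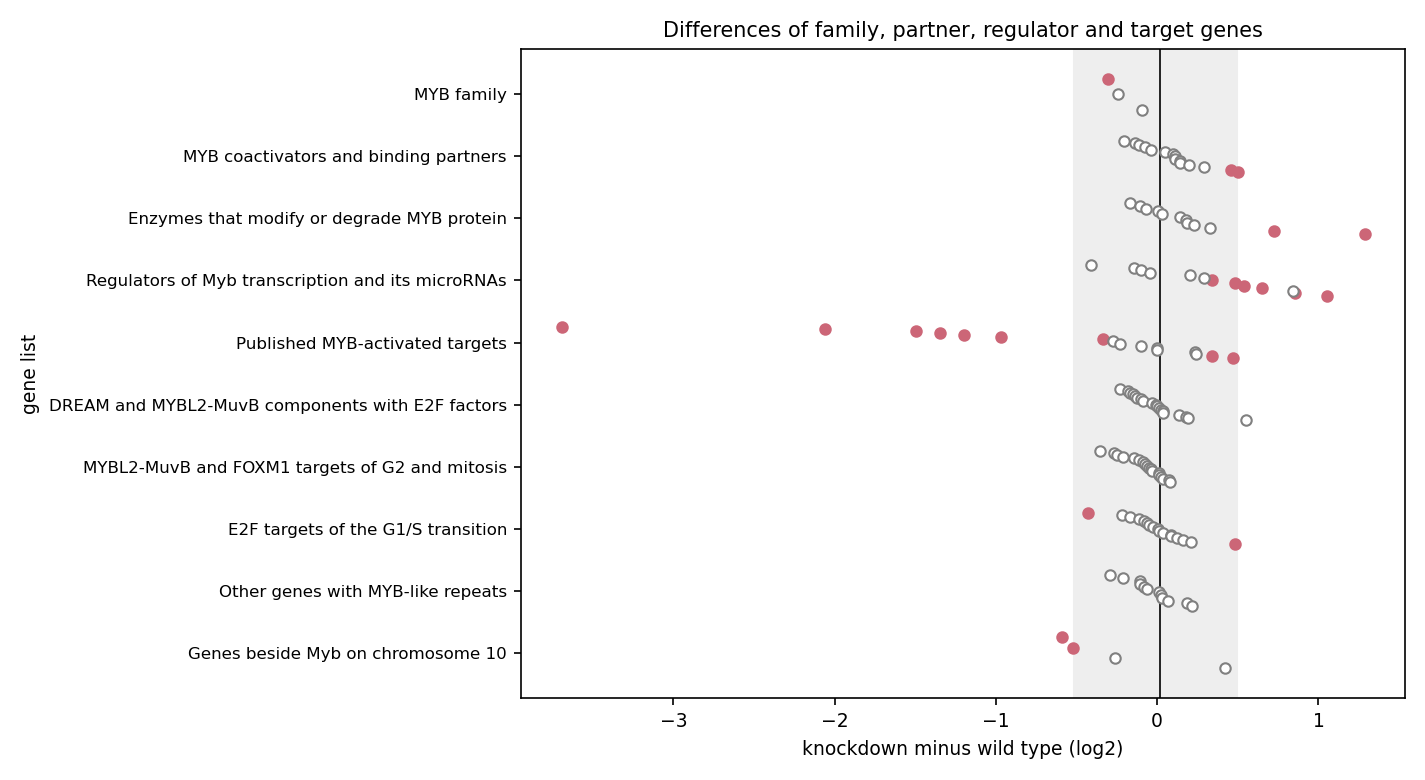
Log2 difference, knockdown minus wild type, for each tested gene of the family and of the lists around it, red where limma called the gene, with the median of all genes as a line and their central range (percentiles 5 to 95) in grey. The MYB-activated targets reach -3.69, the regulators of Myb lie mostly to the right, and the genes of G2 and mitosis lie between -0.36 and 0.08 with none called.

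Myb lies on chromosome 10 from 21124930 to 21160984 (GRCm38.p6), between Ahi1 and Hbs1l as the nearest protein-coding genes. Ahi1, a ciliary gene, read 6.59, 6.53 and 6.52 in wild type and 7.18, 7.05 and 6.67 in knockdown. Its groups did not overlap, and it differed by 0.42 ± 0.14 (adjusted p = 0.0919), opposite in sign to Myb. Hbs1l, a ribosome rescue factor, differed by -0.26 ± 0.17 (adjusted p = 0.395) and was lowest in knockdown mouse 3 (9.22). Without that mouse it differed by -0.05 ± 0.06 (adjusted p = 0.595). Farther away, Pde7b, a cAMP phosphodiesterase with its midpoint 581.9 kb from that of Myb, fell by 0.59 ± 0.11 (adjusted p = 0.0136). Sgk1, a kinase induced by glucocorticoids at 798.1 kb on the other side, fell by 0.52 ± 0.12 (adjusted p = 0.0313). Of the 5 neighbours chosen for description 4 were tested, and Aldh8a1 lay under the filter. Of all 11 tested genes with a midpoint within 1000 kb of that of Myb, 3 fell and 0 rose. The third was E030030I06Rik, at 988.2 kb, which fell by 0.58 ± 0.11 (adjusted p = 0.0116). The falls of Pde7b and Sgk1 were not called when any 1 wild type mouse or knockdown mouse 2 was left out (adjusted p from 0.0542 to 0.135), and that of Sgk1 was not called after median centring (-0.45, adjusted p = 0.0551). E030030I06Rik lost its call when wild type mouse 1, 2 or 3 was left out (0.0692, 0.0581 and 0.0515). Ahi1 was called without knockdown mouse 3 (0.57, adjusted p = 0.00156) and after quantile normalization (0.48, adjusted p = 0.0369) or median centring (0.50, adjusted p = 0.0498), and with array weights (0.54, adjusted p = 0.000635). Without knockdown mouse 3, Map7 and Mtfr2 among these 11 were also called (-0.26, adjusted p = 0.035, and 0.33, adjusted p = 0.0072).

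The genes closest to each member in pattern were ranked by Pearson's r over the same 6 arrays, as a description. For Myb these were Slco4c1 (r = 0.999), an organic anion transporter, Camp (0.999), the cathelicidin of neutrophil granules, S100a8 (0.998), a calprotectin subunit, Pde2a (0.997), a phosphodiesterase, and Prkcb (0.996), a protein kinase C. All of them fell, and their order within the knockdown mice was that of Myb, highest in mouse 1 and lowest in mouse 2. Camp, for example, read 12.11, 12.18 and 12.05 in wild type and 9.74, 8.03 and 8.49 in knockdown. The genes most opposite to Myb were Rcc1 (r = -0.998), Ddt (-0.998) and Fbxo21 (-0.997). Since Myb differs between groups, genes that differ between groups score high on this measure, and the median absolute r of all genes ranked with Myb was 0.541.

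The neighbours of Mybl1 in pattern followed knockdown mouse 3. They were Srp9 (r = 0.999), Fbxo38 (0.997), Ccnl1 (0.997), Fbxo4 (0.996) and Yipf6 (0.995), none of them called. Ccnl1, cyclin L1, read 9.39, 9.13 and 9.21 in wild type and 9.28, 9.14 and 8.68 in knockdown, the last well below the rest. The genes most opposite were Susd4 (-0.998), Jcad (-0.996) and Iglon5 (-0.996), each highest in knockdown mouse 3. For Mybl2 the closest were Mbl2 (0.988), Dhx58 (0.961), Rep15 (0.949), Ehbp1l1 (0.944) and Atxn1l (0.944), and the most opposite Mpdu1 (-0.987), Kdelr1 (-0.984) and Trir (-0.977). None of these was called, and none was a cell cycle gene of the lists above. Between the members r was 0.508 for Myb and Mybl1, 0.474 for Myb and Mybl2 and 0.59 for Mybl1 and Mybl2. The median absolute r of all genes ranked was 0.541 with Myb, 0.650 with Mybl1 and 0.467 with Mybl2. The members were thus about as alike as a typical gene is to them.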

How the data were processed

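The deposited table holds log2 values that the authors made, 1 per probe set and array. The submitters' processing notes name limma and Affymetrix Expression Console. How background was corrected and how arrays were normalized and summarised is not given in the sources used here. Arrays carry no read depth, and their number limits the precision. Probe sets with 1 symbol were kept (21789 of 35556, of which 21698 matched RefSeq by gene number). Of several for a gene the brightest was taken, and genes in the lowest 30% of means were left out. All 3 members passed this filter.

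Knockdown was compared with wild type in limma 3.58.1 (R 4.3.3) by lmFit and eBayes with a trend, two-sided, without covariates. Adjusted p-values of genes are from this fit over all 13956 genes, or from a named alternative of it, after tests on simulated data. Differences are knockdown minus wild type with the SE of the fit, n = 3 mice a group. The members, and the differences between members within each array, also had the exact permutation test over arrays. The members and lists were chosen with earlier results of these data known. Genes named were the members, up to 6 called genes of each list and others stated as not called, the 5 listed neighbours of Myb, Kit and Itgam, and the 5 genes of highest and 3 of lowest correlation with each member. Igll1 and Cxcr4, so that every called target is named, Prtn3 among bright genes, the named markers of cell types, Map7, Mtfr2, E030030I06Rik, E2f4, Cenpe and Smarcc1 were named after their values were seen. Alternatives were a replicate block, quantile normalization, median centring, other filters, the mean of probe sets, other eBayes settings, array weights and each array left out.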

Additional observations from a re-analysis of the deposited data

How the results depend on the processing

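Each member had a single probe set, so the planned use of another one was not run. Mybl1 and Mybl2 kept their direction and stayed uncalled in all 15 alternatives each, and the count of called MYB-activated targets stayed within 1.5 times its value of 9. Myb kept its direction in all 15. It was not called after median centring (-0.23) or without the trend of eBayes (-0.30), and with 1 array left out its difference ran from -0.35 to -0.26. With 1 array left out the shift of Myb minus Mybl1 ran from -0.29 to 0.063 and that of Mybl1 minus Mybl2 from -0.33 to 0.063, and the number of all genes called ran from 663 to 3792. The called genes then numbered 0 to 1 among DREAM and E2F components, 0 to 3 among E2F targets, 1 to 4 among enzymes that modify MYB, 0 to 3 among the 5 listed neighbours of Myb, 0 to 3 among coactivators, 0 to 2 among genes with MYB-like repeats and 1 to 7 among regulators. Array weights gave 3912 genes in all, 1 DREAM or E2F component, 4 E2F targets, 4 enzymes, 1 gene of G2 and mitosis and 2 genes with MYB-like repeats. Of the enzymes 1 was called after quantile normalization, without a filter, without the trend and with robust eBayes. Of those neighbours 1, Sgk1, was called with the filter at 50%, which left Pde7b out of the fit. The estimate of the array weights stopped short of full convergence. Median centring takes the gap between array medians, lower on every knockdown array, out of every difference. The cause of the other changes was not tested. A fit without an array also has fewer mice, whichever array is left out. The mouse numbers name different animals, and deviations of same-numbered mice correlated at 0.293, -0.188 and -0.083. With 3 arrays a group these values cannot decide whether the numbers pair the arrays in any way. With the replicate block Myb differed by -0.30 (adjusted p = 0.0318), Mybl1 by -0.25 and Mybl2 by -0.10, and 1 of 3 wild type arrays correlated best with its own number. The number of arrays limits the precision of all results.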
